A study of Homo sapiens with 60 samples.

Results

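The 10 genes described here code for the regulator and enzymes that make, lengthen, desaturate and activate fatty acids: SREBF1, ACLY, ACACA, FASN, ACSS2, ELOVL6, SCD, FADS1, FADS2 and ACSL3. They were taken by symbol from the 60675 genes of the count table, and all 10 were found once each and passed the filter on low counts. RNA had been sequenced in 60 libraries of SW1783, a human astrocytoma line obtained from the ATCC, after 24 h with a herbal extract or with dimethyl sulfoxide, the vehicle. For Soshiho-tang (2 libraries at each dose) and Yijin-tang (3 at each dose), which are water extracts of herb mixtures, the doses were 20, 100 and 500 µg/mL. The other 6 extracts are ethanol extracts of 1 herb each. Among these, Schisandrae Fructus was given at 12.4, 62 and 310 µg/mL, while Zizyphi Semen, Longan Arillus and Liriopis seu Ophiopogonis Tuber had doses of 20, 100 and 500 µg/mL, again as 3 libraries at each dose. Polygalae Radix (1.2, 6 and 30 µg/mL) and Aucklandiae Radix (6.4, 32 and 160 µg/mL) had a single library at each dose. The vehicle had 3 libraries. All libraries come from this single cell line, and the labels give the vehicle as 0.1% while the series' design text gives 2%, so its concentration is uncertain. The question the design poses for these genes is whether their transcripts differ by extract and dose.

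Cells build fatty acids from acetyl-CoA in the cytosol. ACLY and ACSS2 supply acetyl-CoA from citrate and acetate, ACACA carboxylates it to malonyl-CoA, FASN assembles palmitate, ELOVL6 lengthens palmitate to stearate, SCD places the first double bond, FADS2 and FADS1 desaturate polyunsaturated chains, and ACSL3 joins long chains to coenzyme A. SREBF1 codes for SREBP-1, a membrane-bound transcription factor that is carried by SCAP to the Golgi, cut by proteases and sent to the nucleus, where it raises transcription of these genes. INSIG proteins hold it in the endoplasmic reticulum, and liver X receptors raise SREBF1 transcription. Astrocytes and gliomas make much of their own fatty acid.

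The libraries held 18.73 to 35.52 M counts (median 25.79 M). By the first part of their names they fall into 5 library sets, and the 3 vehicle libraries (18.73 to 20.47 M) share a set with no extract. A difference from the vehicle and a difference between library sets therefore cannot be told apart, and the low dose of the same extract, from the same set, was used as the first point of comparison. Levels are given in CPM, counts scaled to the library size and its TMM factor. Of 9 astroglial markers 4 reached 1 CPM in the vehicle. VIM stood at 4740 to 4780 CPM and SOX9 at 75.6 to 89.5 CPM, while GFAP, S100B, AQP4, ALDH1L1 and SLC1A2 were at or near 0, none above 0.531 CPM in any library. Markers of adipocytes and hepatocytes, in which this pathway is prominent, summed to at most 0.334 and 0.202 CPM in any library. Of 4 microglial and leukocyte markers 3 reached 1 CPM in the vehicle, and their sum ran from 66.5 to 274 CPM over all libraries, most of it CD68 (182 to 206 CPM in the vehicle). Of 4 neuronal markers 2 reached 1 CPM, SYT1 and SNAP25, with a sum of 22.8 to 56.9 CPM. Their part in the results was not tested. In bulk RNA, a change in the number of cells of a kind and a change in RNA per cell cannot be told apart.

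In the vehicle the members differed widely in level when expressed per kilobase of annotated exon. ACLY was the most abundant, at 84.4, 86.8 and 85.6 CPM per kb in the 3 libraries, followed by SCD at 45.9, 51.0 and 51.4 and FASN at 33.2, 33.2 and 35.5 CPM per kb. ACACA averaged 12 CPM per kb, and its libraries did not overlap with those of the others. FADS1 (9.20 to 9.79) and ACSL3 (9.07 to 9.27) overlapped in CPM per kb, as did SREBF1 (6.96 to 7.46), ACSS2 (6.73 to 7.18) and FADS2 (6.66 to 7.14), and ELOVL6 was last at 5.86 to 5.94. The first 3 places were the same with the longest transcript as the length, whereas FADS1 moved ahead of ACACA, and ACSL3 came after FADS2, SREBF1 and ACSS2.

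At 500 µg/mL of Soshiho-tang, 8 of the 10 genes were higher than at 20 µg/mL and 0 were lower in edgeR's quasi-likelihood test, against 18.6% of all 17851 genes tested called in either direction, 9.91% higher and 8.67% lower. A gene is called here when its Benjamini-Hochberg adjusted p over all genes tested is under 0.05. The members' median log2 fold change was 0.44, and that of all genes was 0. SCD and SREBF1 changed most, ACSL3 and FASN came next, and ACLY and ACSS2 were not called.

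The regulator SREBF1 (ENSG00000072310, chr17:17810399-17837002, minus strand; positions here are GRCh38 with the GENCODE release 29 annotation) had 156 and 156 CPM at 500 µg/mL of Soshiho-tang, against 62.2 and 64.6 CPM at 20 µg/mL and 58.5, 59.9 and 55.9 CPM in the vehicle. Both high-dose libraries lay above the other 58 libraries of the series. The log2 fold change was 1.3 ± 0.09 (SE) against the low dose, a 2.46-fold difference (edgeR adjusted p = 2.37e-15), and 1.42 ± 0.08 against the vehicle. Of its 8030 exonic bases 556 are shared with RAI1 on the opposite strand, and the strand setting of the authors' counting is not given in the sources used here.

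Among the enzymes that make palmitate, FASN (ENSG00000169710, chr17:82078333-82098332) had 474 and 484 CPM at the high dose of Soshiho-tang, against 286 and 280 CPM at the low dose and 311, 311 and 332 CPM in the vehicle. The groups did not overlap, and the log2 fold change was 0.76 ± 0.09 against the low dose (1.69-fold, edgeR adjusted p = 8.49e-09). ACACA (ENSG00000278540, chr17:37084988-37406818), which commits acetyl-CoA to synthesis, had 161 and 174 CPM at the high dose, 124 and 125 CPM at the low dose and 144, 156 and 166 CPM in the vehicle. Its high-dose libraries lay above the low-dose ones but overlapped with the vehicle. The log2 fold change was 0.43 ± 0.14 against the low dose (edgeR adjusted p = 0.0309) and 0.10 ± 0.13 against the vehicle (edgeR adjusted p = 0.619). The call against the low dose was lost in each of the 4 fits that left out 1 of the libraries compared (edgeR adjusted p between 0.0594 and 0.194).

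The acetyl-CoA suppliers did not follow. ACLY (ENSG00000131473, chr17:41866908-41930542) had 388 and 387 CPM at the high dose of Soshiho-tang, 407 and 401 CPM at the low dose and 440, 453 and 447 CPM in the vehicle. Its high-dose libraries were the lowest of the 3 groups, and the log2 fold change was -0.06 ± 0.06 against the low dose (edgeR adjusted p = 0.593) and -0.21 ± 0.06 against the vehicle (edgeR adjusted p = 0.004). ACSS2 (ENSG00000131069, chr20:34872146-34927962) had 41.5 CPM in both high-dose libraries, 38.8 and 39.2 CPM at the low dose and 36.2 to 38.7 CPM in the vehicle. It lay above both other groups, by 0.09 ± 0.05 on the log2 scale against the low dose (edgeR adjusted p = 0.312) and by 0.15 ± 0.05 against the vehicle (edgeR adjusted p = 0.0186). The call against the vehicle was lost without vehicle replicates 1 or 3 or either high-dose library (edgeR adjusted p between 0.0617 and 0.0757) and without the low-count filter (0.121). None of the ACACA, FASN and ACSS2 values in the table was fractional, while every ACLY value was, as the authors' counting gives where reads are shared out between genes.

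SCD (ENSG00000099194, chr10:100347124-100364834), the desaturase that turns stearate into oleate, had the largest difference of the 10. Its level was 691 and 713 CPM at the high dose of Soshiho-tang, against 256 and 247 CPM at the low dose and 246, 273 and 276 CPM in the vehicle. These were also the 2 highest SCD values of all 60 libraries. The log2 fold change was 1.48 ± 0.11 against the low dose (2.79-fold, edgeR adjusted p = 1.38e-14) and 1.40 ± 0.10 against the vehicle.

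The desaturases of polyunsaturated chains changed less. FADS1 (ENSG00000149485, chr11:61799625-61829318), which completes arachidonic acid, had 131 and 131 CPM at the high dose, 96.5 and 95.3 CPM at the low dose and 94.2 to 100 CPM in the vehicle. FADS2 (ENSG00000134824, chr11:61792980-61867354), which starts the desaturation of linoleic acid, had 98.3 and 100 CPM at the high dose, 76.9 and 73.0 CPM at the low dose and 73.4 to 78.7 CPM in the vehicle. Both genes were higher in both high-dose libraries than in every library of the other 2 groups, with log2 fold changes of 0.45 ± 0.06 for FADS1 and 0.41 ± 0.07 for FADS2 against the low dose. The annotated span of FADS1 lies within that of FADS2 on the opposite strand, they share 490 exonic bases, and 91.7% of the values of each were fractional, so the authors' counting may have moved reads between them. ELOVL6 (ENSG00000170522, chr4:110045846-110199199) had 52.2 and 51.0 CPM, against 43.8 and 41.7 CPM at the low dose and 42.8 to 43.3 CPM in the vehicle, with no overlap. Its log2 fold change of 0.27 ± 0.07 against the low dose (edgeR adjusted p = 0.00491) lost its call without low-dose replicate 3 (0.24, edgeR adjusted p = 0.0877).

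ACSL3 (ENSG00000123983, chr2:222860934-222944639), an acyl-CoA synthetase of the endoplasmic reticulum and of lipid droplets, had 109 and 113 CPM at the high dose of Soshiho-tang, 62.9 and 65.0 CPM at the low dose and 65.7 to 67.1 CPM in the vehicle. The other 58 libraries had at most 67.6 CPM, and the log2 fold change was 0.79 ± 0.06 against the low dose (1.73-fold, edgeR adjusted p = 3.1e-15). Against the vehicle 8 members were higher and 1, ACLY, was lower at this dose, where 30.3% of all genes tested were called, 14.2% higher and 16.2% lower. Of the 8 called against the low dose, 7 were called against the vehicle in the same direction, and ACACA was not.

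**Figure D1:**
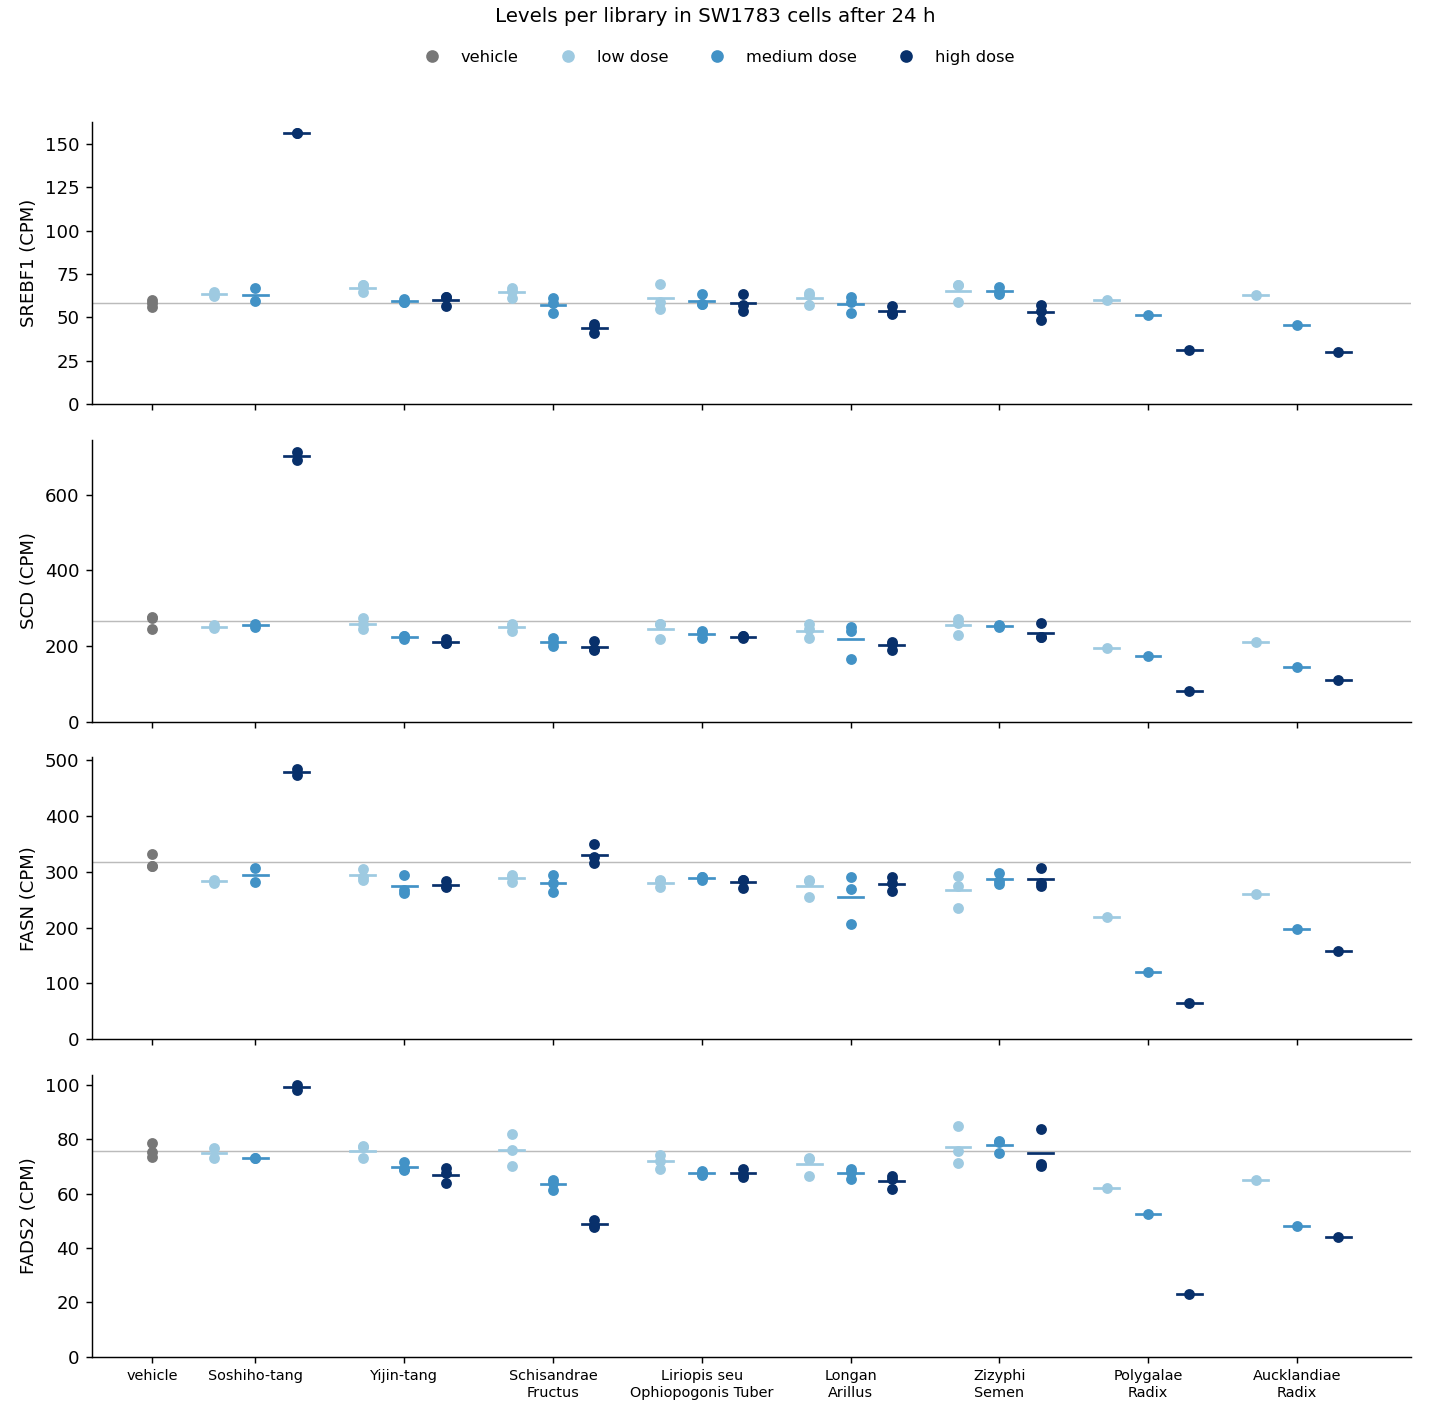
Levels of SREBF1, SCD, FASN and FADS2 in each of the 60 libraries, in CPM, for the vehicle and for low, medium and high doses of the 8 extracts. Points are libraries, short bars are group means and the grey line is the vehicle mean; the 2 Soshiho-tang high-dose libraries stand above all others in each panel, SCD at 691 and 713 CPM, and the Polygalae Radix high-dose library is lowest for SCD, FASN and FADS2.

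The 3 members that rose most, SCD, SREBF1 and ACSL3, and ACLY, which was not called against the low dose, are shown by their promoter windows, since SREBP-1 is known to act with NF-Y and Sp1 at such sites. Each window, from RefSeq on GRCh38.p14, runs from 250 bases before to 50 bases after an annotated start, 5′ to 3′ on the gene's strand. Capitals mark the letters CCAAT (bound by NF-Y) and GGGCGG (bound by Sp1) on either strand, where the reverse strand reads ATTGG and CCGCCC. In the 4 windows shown no 2 matches shared a base.
SCD promoter (chr10:100346983-100347282, plus strand): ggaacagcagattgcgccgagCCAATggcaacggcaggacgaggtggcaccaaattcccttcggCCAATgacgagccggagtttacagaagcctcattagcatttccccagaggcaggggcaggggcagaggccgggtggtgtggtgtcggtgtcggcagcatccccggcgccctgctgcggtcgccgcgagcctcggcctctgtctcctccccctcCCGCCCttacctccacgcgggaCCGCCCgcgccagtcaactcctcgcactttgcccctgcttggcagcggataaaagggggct
SREBF1 promoter (chr17:17836937-17837236, minus strand): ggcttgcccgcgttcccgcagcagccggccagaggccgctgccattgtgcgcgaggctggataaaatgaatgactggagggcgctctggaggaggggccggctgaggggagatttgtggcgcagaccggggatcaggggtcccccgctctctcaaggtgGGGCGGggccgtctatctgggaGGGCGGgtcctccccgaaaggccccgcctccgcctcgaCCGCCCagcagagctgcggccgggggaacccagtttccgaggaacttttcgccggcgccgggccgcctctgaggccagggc
ACSL3 promoter (chr2:222860786-222861085, plus strand): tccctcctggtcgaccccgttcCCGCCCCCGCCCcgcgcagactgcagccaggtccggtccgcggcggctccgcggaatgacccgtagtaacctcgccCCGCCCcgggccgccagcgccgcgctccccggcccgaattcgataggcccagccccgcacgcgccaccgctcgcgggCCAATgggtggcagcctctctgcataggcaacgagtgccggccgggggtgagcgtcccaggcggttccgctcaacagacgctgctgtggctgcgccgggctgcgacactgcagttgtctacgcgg
ACLY promoter (chr17:41918973-41919272, minus strand, the first of 2 windows): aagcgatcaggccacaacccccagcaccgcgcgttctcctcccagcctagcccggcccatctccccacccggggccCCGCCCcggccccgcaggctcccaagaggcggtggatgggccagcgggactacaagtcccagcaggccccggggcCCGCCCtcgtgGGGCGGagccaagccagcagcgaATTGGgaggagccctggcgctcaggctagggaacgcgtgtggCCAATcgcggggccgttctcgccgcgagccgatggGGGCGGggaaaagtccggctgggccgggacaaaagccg

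Counted from the start, SCD held CCAAT at positions -229 and -186, and ACSL3 held it at -75. SREBF1 held GGGCGG or its reverse 3 times and no CCAAT, and ACLY held both kinds of letters. In all, 14 windows covered 9 members, and none was found for FASN. CCAAT was in 8 of the 14 windows, from 6 members, and in 34.6% of all 35116 windows. GGGCGG was in 12 of the 14 windows, from all 9 members, and in 45.0% of all windows. Both ACLY windows overlap and hold the same matches, and the FADS2 windows overlap too, so the windows of a member are not independent. The shares of all windows are per window, and a member with several windows has more occasions for a match. The sterol response letters TCACNCCAC were in no member window and in 1.13% of all windows, and the E-box form TCACGTGA was in no member window and in 0.98%. These matches describe letters in 300-base windows and are not binding sites, and the absence of a match says nothing about the factor.

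At 100 µg/mL of Soshiho-tang SCD had 258 and 251 CPM and SREBF1 66.7 and 59.6 CPM, and these and 6 other members overlapped with the low dose. ACACA, at 133 and 130 CPM against 124 and 125 CPM, lay above it (edgeR unadjusted p = 0.591). ACSS2, at 37.3 and 37.7 CPM against 38.8 and 39.2 CPM, lay below (edgeR unadjusted p = 0.298). The share of all genes without overlap between these groups of 2 libraries was not counted. The log2 differences from 20 µg/mL ran from -0.07 (ELOVL6) to 0.08 (ACACA). In edgeR's test 0 of 10 were called, 0 had an unadjusted p under 0.05, DESeq2 called 0, and 0.0112% of all genes tested were called. Against the vehicle 0 of 10 were called at 100 µg/mL (4.2% of all genes tested) and 0 at 20 µg/mL (1.9%), with 1 and 3 members at an unadjusted p under 0.05 and 0 called by DESeq2 in both.

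The other decoction, Yijin-tang, shared its doses and library set with Soshiho-tang, so the differences between high and low dose could be compared directly. For 6 of 10 members the difference was larger with Soshiho-tang, and for 0 it was smaller, with 9.4% of all genes tested called. The difference of log2 fold changes was 1.77 ± 0.14 for SCD, 1.46 ± 0.12 for SREBF1, 0.85 ± 0.12 for FASN, 0.84 ± 0.07 for ACSL3, 0.59 ± 0.09 for FADS2 and 0.35 ± 0.08 for FADS1. ACACA (0.51 ± 0.19, edgeR adjusted p = 0.0825) and ELOVL6 (0.28 ± 0.09, edgeR adjusted p = 0.0518) missed the threshold. ACLY (0.01 ± 0.08) and ACSS2 (0.12 ± 0.07) were also not called.

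With Yijin-tang 2 desaturase genes, SCD and FADS2, were lower at 500 than at 20 µg/mL, and the other, FADS1, was not called (0.10 ± 0.05), with all high-dose libraries above those of the low dose. SCD had 219, 209 and 208 CPM at the high dose, 273, 258 and 245 CPM at the low dose and 246 to 276 CPM in the vehicle. FADS2 had 69.6, 67.6 and 63.8 CPM, against 77.7, 77.1 and 73.0 CPM at the low dose and 73.4 to 78.7 CPM in the vehicle. The high-dose libraries lay below both other groups for each gene, by -0.29 ± 0.09 for SCD (edgeR adjusted p = 0.0311) and -0.18 ± 0.06 for FADS2 (edgeR adjusted p = 0.0382) on the log2 scale against the low dose. These 2 of 10 were called, both lower, against 7% of all genes tested, 3.61% higher and 3.39% lower. Leaving out 1 library ended the SCD call in 5 of the 6 possible fits and the FADS2 call in 4.

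Against the vehicle, 500 µg/mL of Yijin-tang went with 1 member higher and 6 lower, where 19.7% of all genes tested were called, 8.02% higher and 11.7% lower. Without vehicle replicates 2 or 3 or high-dose replicates 1 or 3, 3 members in all were called, and without high-dose replicate 2 it was 4. FADS1, the one higher, had 108, 106 and 110 CPM, against 101, 101 and 100 CPM at the low dose and 94.2, 100 and 98.9 CPM in the vehicle. Its libraries lay above both groups, with a log2 fold change of 0.14 ± 0.05 against the vehicle (edgeR adjusted p = 0.044) and 0.10 ± 0.05 against the low dose, which was not called (edgeR adjusted p = 0.286). The call against the vehicle was lost in each of the 6 fits without 1 of the vehicle or high-dose libraries (edgeR adjusted p between 0.0545 and 0.168) and without the low-count filter (0.0773). At 100 µg/mL 6 members were lower than in the vehicle (14.2% of all genes tested), and 1 or 2 without vehicle replicates 2 or 3 or medium-dose replicates 1 or 2. At 100 against 20 µg/mL 0 were called by edgeR or DESeq2 (0.0224% of all genes tested), with 4 at an unadjusted p under 0.05, all lower: SREBF1, SCD, FADS1 and FADS2.

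Schisandrae Fructus, whose high dose was 310 µg/mL, split the members. Against 12.4 µg/mL 7 of 10 were lower and 2, FASN and ACSS2, were higher, and ACSL3 was not called (0.01 ± 0.05). This extract changed much of the transcriptome, with 45.9% of all genes tested called in the same comparison, 22.3% higher and 23.6% lower, and the members' count is to be read against these shares. The members' median log2 fold change was -0.17 and that of all genes was 0.

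**Figure D2:**
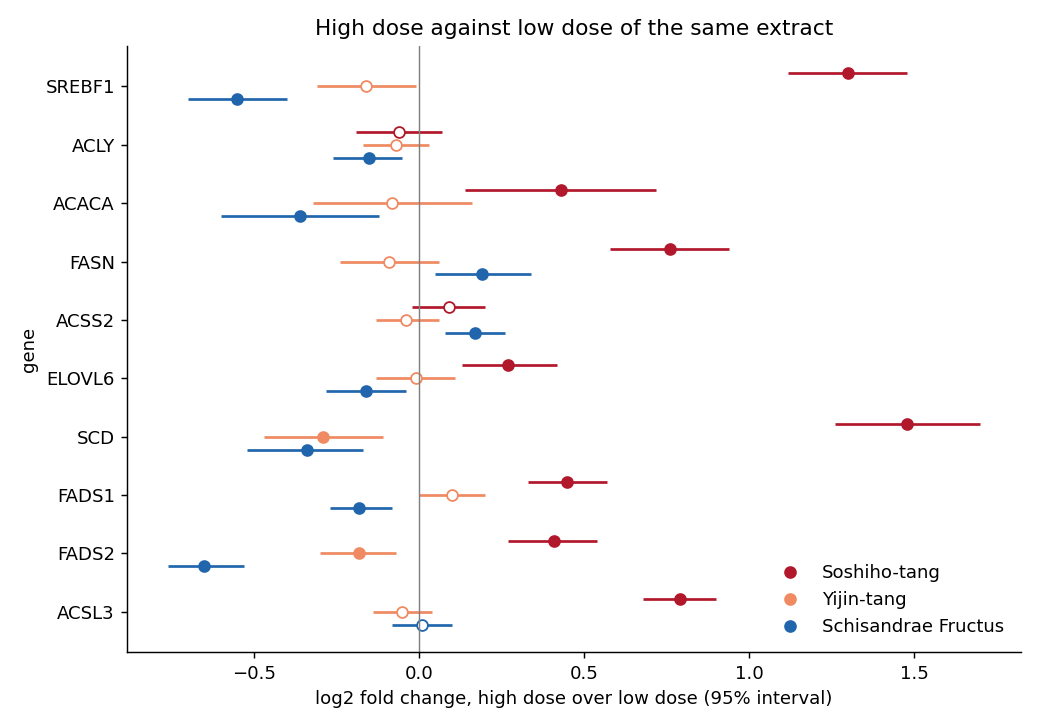
Log2 fold change of each gene, high over low dose of the same extract, for Soshiho-tang, Yijin-tang and Schisandrae Fructus; lines are 95% intervals from the edgeR fit, and filled points have an adjusted p under 0.05. SREBF1 and SCD lie at 1.3 and 1.48 with Soshiho-tang and at -0.55 and -0.34 with Schisandrae Fructus, while FASN lies above 0 with both.

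FADS2 had the largest fall with Schisandrae Fructus. It had 50.2, 48.4 and 47.8 CPM at 310 µg/mL, against 70.3, 81.9 and 76.1 CPM at 12.4 µg/mL and 73.4 to 78.7 CPM in the vehicle. At 62 µg/mL it had 61.5, 63.8 and 65.1 CPM, so the 3 doses did not overlap, and the level was lower at each higher dose. The log2 fold change was -0.65 ± 0.06 at the high dose against the low dose (0.639-fold, edgeR adjusted p = 1.3e-12). At the medium dose it was -0.27 ± 0.06 (edgeR adjusted p = 0.0642), which missed the threshold, and DESeq2 gave an adjusted p of 0.0164.

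SREBF1 had 40.9, 45.1 and 46.3 CPM at the high dose of Schisandrae Fructus, against 61.2, 67.1 and 65.1 CPM at the low dose and 55.9 to 59.9 CPM in the vehicle. Its log2 fold change was -0.55 ± 0.07 (edgeR adjusted p = 5.02e-08). SCD had 240, 254 and 259 CPM at the low dose, 210, 220 and 200 CPM at the medium and 213, 192 and 190 CPM at the high dose. High and low dose did not overlap, and high and medium did, with a log2 fold change of -0.34 ± 0.09 at the high dose (edgeR adjusted p = 0.00121). ACACA fell by 0.36 ± 0.12 on the log2 scale, to 114, 101 and 91.5 CPM against 125, 130 and 136 CPM at the low dose. FADS1 (-0.18 ± 0.05), ELOVL6 (-0.16 ± 0.06) and ACLY (-0.15 ± 0.05) were lower by less.

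FASN went the other way with Schisandrae Fructus. It had 326, 350 and 316 CPM at 310 µg/mL, against 281, 290 and 295 CPM at 12.4 µg/mL and 311, 311 and 332 CPM in the vehicle. The high-dose libraries lay above the low-dose ones and overlapped with the vehicle, with log2 fold changes of 0.19 ± 0.07 (edgeR adjusted p = 0.0281) and 0.05 ± 0.07 (edgeR adjusted p = 0.62). ACSS2 had 43.5, 44.8 and 45.7 CPM, against 39.9, 38.4 and 40.4 CPM at the low dose and 36.2 to 38.7 CPM in the vehicle. Its libraries lay above both, with a log2 fold change of 0.17 ± 0.04 against the low dose (edgeR adjusted p = 0.00139) and 0.26 ± 0.05 against the vehicle.

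SREBF1, SCD, FADS2 and ACSS2 kept their calls against the low dose in each fit without 1 library. The call of FASN was lost without low-dose replicates 1 or 2 or high-dose replicate 2, that of ELOVL6 without high-dose replicates 2 or 3 or low-dose replicate 3, and those of ACLY, ACACA and FADS1 without high-dose replicate 3, which left 5 calls. Against the vehicle 1 member was higher and 7 were lower at the high dose, where 50.1% of all genes tested were called, 23.4% higher and 26.7% lower. At the medium dose 3 (ACLY, SCD and FADS2) were lower than in the vehicle (5.38%), or 1 without vehicle replicates 2 or 3 or medium-dose replicate 3. Against the low dose 0 were called at 62 µg/mL in edgeR (0.0392%), with 3 at an unadjusted p under 0.05 and 1 by DESeq2; without low-dose replicate 1 edgeR called 1, FADS2 (-0.32). At the low dose 0 were called against the vehicle by either tool (1.08%), with 2 at an unadjusted p under 0.05.

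Soshiho-tang and Schisandrae Fructus differed in their change from low to high dose in 8 of 10 members, each more positive with Soshiho-tang (24.1% of all genes tested called). The difference of log2 fold changes was 1.85 ± 0.12 for SREBF1, 1.82 ± 0.14 for SCD, 1.05 ± 0.09 for FADS2 and 0.57 ± 0.12 for FASN. The doses of the 2 extracts are not matched, at 500 against 20 and 310 against 12.4 µg/mL. Yijin-tang and Schisandrae Fructus differed in 5, with SREBF1 (0.39), FADS1 (0.27) and FADS2 (0.46) more positive and FASN (-0.28) and ACSS2 (-0.21) more negative with Yijin-tang (23.9% called). For SCD the difference was 0.05 ± 0.12 and was not called. The FASN difference kept its direction but lost its call in 10 of the 12 fits without 1 of these libraries, all except those without Yijin-tang low-dose replicate 3 and Schisandrae Fructus high-dose replicate 3, and the ACSS2 difference lost its call without Yijin-tang high-dose replicate 3 (edgeR adjusted p = 0.0519). Set against Liriopis seu Ophiopogonis Tuber, which shared its library set, Schisandrae Fructus differed in 3, SREBF1 (-0.48 ± 0.11), FADS2 (-0.55 ± 0.08) and ACSS2 (0.32 ± 0.06), where 31.1% of all genes tested were called.

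The remaining 3 replicated single herbs moved these genes little between doses. With Liriopis seu Ophiopogonis Tuber 0 of 10 were called between 500 and 20 µg/mL by edgeR or DESeq2, as were 0% of all genes tested, and ACSS2 alone had an unadjusted p under 0.05 (-0.15 ± 0.05; 37.9, 38.9 and 36.6 CPM at the high dose, against 41.5, 41.5 and 43.3 CPM at the low dose). With Longan Arillus 1 was called, FADS1, at 81.5, 81.3 and 77.0 CPM at the high dose, against 99.3, 99.3 and 88.7 CPM at the low dose and 94.2 to 100 CPM in the vehicle. All high-dose libraries were below those of the other groups, with a log2 fold change of -0.27 ± 0.05 (edgeR adjusted p = 0.00165) where 0.936% of all genes tested were called. With Zizyphi Semen 1 was called, SREBF1, at 48.5, 57.3 and 53.7 CPM at the high dose, against 59.1, 68.9 and 68.5 CPM at the low dose and 55.9 to 59.9 CPM in the vehicle. The high-dose libraries lay below the low-dose ones and overlapped with the vehicle, with a log2 fold change of -0.30 ± 0.08 (edgeR adjusted p = 0.00847) where 5.78% were called, and the call was lost without high-dose replicate 1 or low-dose replicates 2 or 3. The change of FADS1 differed between Longan Arillus and Zizyphi Semen by -0.27 ± 0.07 (edgeR adjusted p = 0.0182), the 1 member called where 3.97% of all genes tested were, and lost its call in 6 of 12 fits without 1 of these libraries (edgeR adjusted p between 0.0558 and 0.0787): Longan Arillus high-dose replicate 3 or low-dose replicates 1 or 2, and Zizyphi Semen high-dose replicates 1 or 2 or low-dose replicate 1.

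At 100 against 20 µg/mL of these 3 extracts 0 members were called by either tool, and 0% of all genes tested in each. An unadjusted p under 0.05 was seen for 1 member with Liriopis seu Ophiopogonis Tuber (ACSS2, -0.12 ± 0.04) and for 0 with the other two. Replicate 3 of the Longan Arillus medium dose stood apart: ACACA was at 75.7 CPM there and at 134 and 130 CPM in the other replicates, SCD at 165 against 240 and 250 CPM, and ACLY at 309 against 406 and 383 CPM. Its log2 CPM over all genes tested correlated with the vehicle mean at r = 0.976, the lowest among the replicated libraries. Against the vehicle 7 members were lower at that dose (25.2% of all genes tested called), and 1 without this library. Without vehicle replicates 2 or 3 it was 3.

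**Figure D3:**
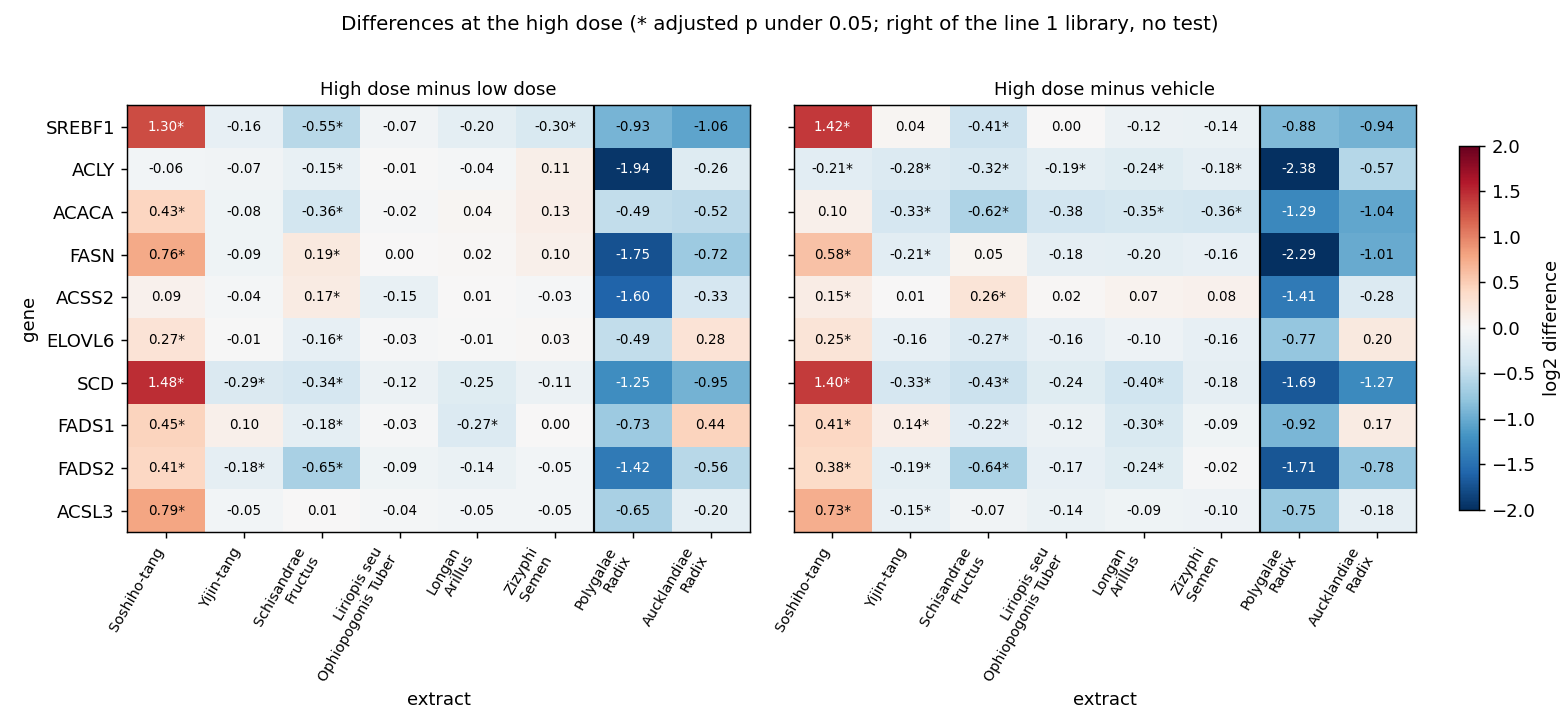
Log2 differences of the 10 genes at the high dose of each extract, against the low dose of the same extract (left panel) and against the vehicle (right panel). Stars mark an adjusted p under 0.05 in the edgeR fit, and the 2 extracts right of the line had 1 library per dose and no test; Soshiho-tang has 8 starred rises in the left panel and Schisandrae Fructus 2 rises and 7 falls.

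ACLY and ACACA were below the vehicle already at the lowest doses. The comparisons with the vehicle all use the same 3 vehicle libraries. At the low doses of the 6 replicated extracts ACLY lay at -0.15 to -0.29 on the log2 scale, called in 4, and ACACA at -0.25 to -0.49, called in 2. At the high doses ACLY lay at -0.18 to -0.32, called in all 6, and against the low dose it was called in 1 (Schisandrae Fructus). Without the low-count filter, ACLY was called against the vehicle in 3 of 6 at the high doses (Yijin-tang, Schisandrae Fructus and Longan Arillus) and in 1 at the low doses (Zizyphi Semen). FASN was below the vehicle at all 6 low doses (-0.12 to -0.25, called in 1), whereas ACSS2 was above it (0.05 to 0.17, called in 1) and SREBF1 was above it with none called (0.06 to 0.20). The vehicle libraries form a set of their own, so a shift already present at the lowest dose cannot be told apart from a difference between sets.

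At the low dose against the vehicle 1 member was called with Yijin-tang (2.62% of all genes tested), 2 with Liriopis seu Ophiopogonis Tuber (6.56%), 2 with Longan Arillus (5.37%) and 4 with Zizyphi Semen (18.5%). All were lower except ACSS2 with Liriopis seu Ophiopogonis Tuber (0.17 ± 0.05). At the medium dose 2 were lower with Liriopis seu Ophiopogonis Tuber (12.9%) and 2 with Zizyphi Semen (14.4%). At the high dose 1 was lower with Liriopis seu Ophiopogonis Tuber (4.09%), 5 with Longan Arillus (15.9%) and 2 with Zizyphi Semen (13.3%). The count for Longan Arillus at the high dose was 4 to 6 without any single library of the comparison. Most of the smaller counts changed with single libraries: without vehicle replicate 3 alone they were 0, 0 and 0 for the high, medium and low dose of Liriopis seu Ophiopogonis Tuber, 1, 1 and 2 for Zizyphi Semen, 0 for the low dose of Longan Arillus and 0 for that of Yijin-tang. Among these extracts Longan Arillus had the lowest SCD, at 212, 206 and 189 CPM, against 246 to 276 CPM in the vehicle (-0.40 ± 0.09, edgeR adjusted p = 0.00194). Against its own low dose, at 244, 258 and 221 CPM, SCD did not overlap but was not called (-0.25 ± 0.09, edgeR adjusted p = 0.196).

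With Polygalae Radix, every member was lower at 30 µg/mL than at 1.2 µg/mL, in 1 library per dose and so without a test. 5 of 10 were past 2-fold, all lower, where 23.8% of all genes tested were past 2-fold in either direction. The median log2 difference from the low dose was -1.09 for the members and 0.02 for all genes tested. This high-dose library was the lowest of the 60 for 9 of the 10 genes, SREBF1 being lowest with Aucklandiae Radix. The shares of all genes that were lower than at 1.2 µg/mL, or lowest in this library, were not counted. Intervals below are exact 95% Poisson intervals of the count and cover counting error only.

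ACLY had 86.0 CPM (82.8 to 89.3) at 30 µg/mL of Polygalae Radix, against 330 CPM at 1.2 µg/mL and 440 to 453 CPM in the vehicle. FASN had 311 to 332 CPM in the vehicle, 219 CPM at 1.2 µg/mL, 120 CPM at 6 µg/mL and 64.9 CPM (62.1 to 67.7) at 30 µg/mL. Both were far below the vehicle at the high dose, with log2 differences between high and low dose of -1.94 for ACLY and -1.75 for FASN. ACSS2 (14.0 against 42.5 CPM, -1.60), FADS2 (23.1 against 62.0 CPM, -1.42) and SCD (81.8 against 195 CPM, -1.25) were also past 2-fold. The order differs from that of Soshiho-tang, where ACLY and ACSS2 were the 2 members not called. SREBF1 (-0.93), FADS1 (-0.73), ACSL3 (-0.65), ACACA (-0.49) and ELOVL6 (-0.49) were lower by less, and at 6 µg/mL FASN had the largest difference (-0.86), with 0 of 10 past 2-fold (3.64% of all genes tested).

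The same library stood apart in other measures, and its log2 CPM over all genes tested correlated with the vehicle mean at r = 0.958. VIM was at 635 CPM there, against 5450 CPM at the low dose and 4740 to 4780 CPM in the vehicle, 20.3% of its counts were mitochondrial, against 14.2% and 11.6% to 11.9%, and its scaling factor was 1.217, the highest of the series. Their part in the result was not tested. Against the vehicle mean 6 members were past 2-fold, all lower, where 21.9% of all genes tested were past it in either direction. The median log2 difference was -1.35 for the members and 0.03 for all genes tested. All 10 members lay below the vehicle's range, and the share of all genes that did was not counted.

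With Aucklandiae Radix 8 of 10 members were lower at 160 than at 6.4 µg/mL and 8 lay below the vehicle's range, again without a test. The shares of all genes that did so were not counted. The members' median log2 difference was -0.43 from the low dose and -0.68 from the vehicle mean, and that of all genes tested was -0.02 and 0.01. The log2 CPM of this high-dose library over all genes tested correlated with the vehicle mean at r = 0.961. SREBF1 had 55.9 to 59.9 CPM in the vehicle, 62.9 CPM at 6.4 µg/mL, 45.4 CPM at 32 µg/mL and 30.2 CPM (28.0 to 32.4) at 160 µg/mL. SCD had 246 to 276 CPM in the vehicle and 212, 146 and 110 CPM (106 to 114) at these doses, and FASN had 311 to 332 CPM in the vehicle and then 260, 198 and 158 CPM. All 3 were lower at each higher dose, with log2 differences between high and low dose of -1.06 for SREBF1, -0.95 for SCD and -0.72 for FASN. FADS1 was higher at the high dose instead, with 94.2 to 100 CPM in the vehicle and 110 CPM (106 to 114) at 160 µg/mL (0.44 between high and low). It had 81.1 CPM (77.5 to 84.8) at 6.4 and 85.2 CPM (81.5 to 88.9) at 32 µg/mL, where the intervals overlap. ELOVL6 had 49.4 CPM at the high against 40.6 CPM at the low dose (0.28). Between high and low dose 1 of 10 was past 2-fold, SREBF1 (14.4% of all genes tested), and between medium and low 0 were (4.53%). Against the vehicle mean 3 were past 2-fold at the high dose, SCD (-1.27), ACACA (-1.04) and FASN (-1.01), where 19.2% of all genes tested were.

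**Figure D4:**
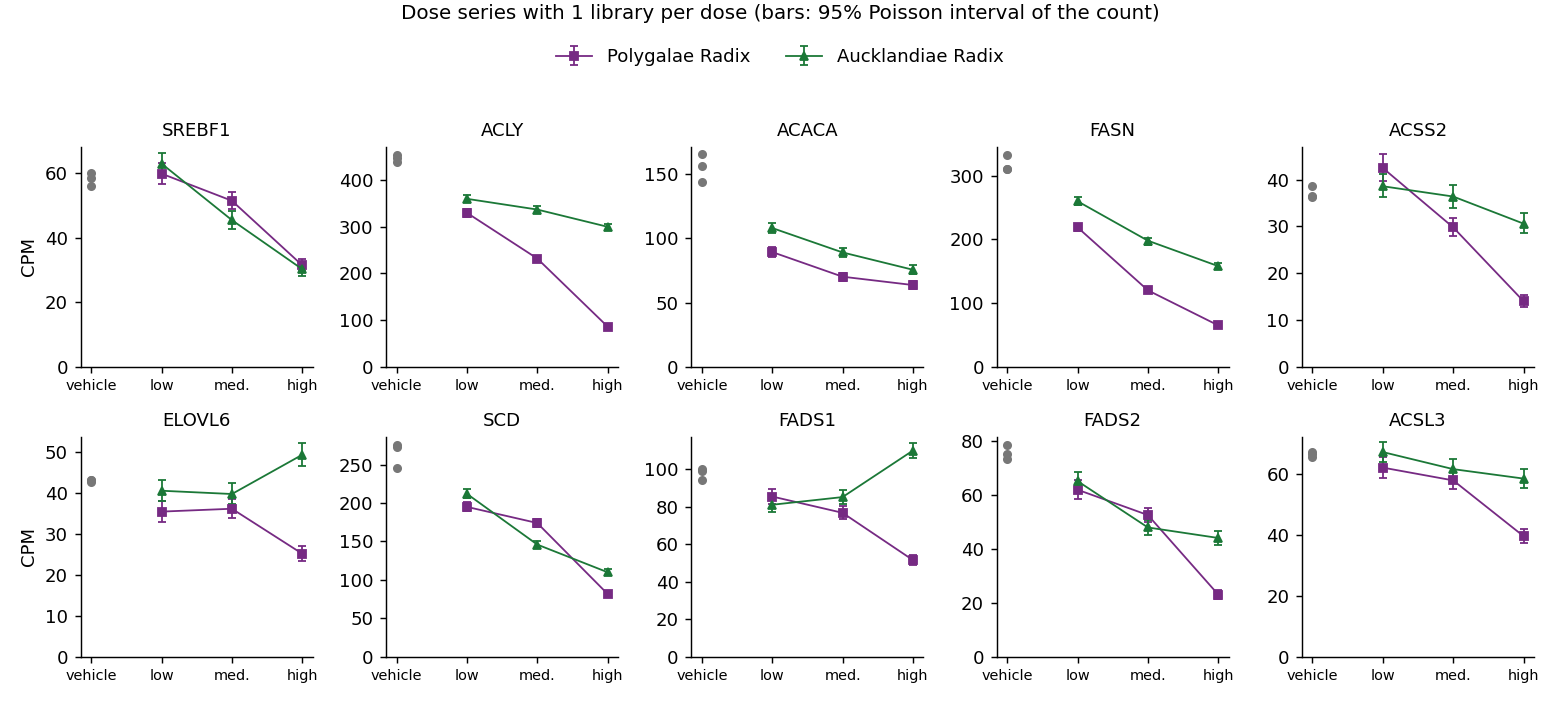
Levels of the 10 genes in CPM at low, medium and high dose of Polygalae Radix (squares) and Aucklandiae Radix (triangles), 1 library per dose with the 95% Poisson interval of its count, beside the 3 vehicle libraries (grey). At the high dose of Polygalae Radix ACLY, FASN and ACSS2 are at 86.0, 64.9 and 14.0 CPM, and FADS1 and ELOVL6 are highest at the high dose of Aucklandiae Radix.

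Members were set beside each other over the 12 log2 differences of high or medium from low dose in the replicated extracts. The 2 differences of an extract share its low-dose libraries, so Pearson's r is given as a description. It was highest for SCD and ACSL3 (0.98), SREBF1 and SCD (0.97), ACACA and FADS2 (0.95) and FASN and ACSL3 (0.95), with a median of 0.74 over the 45 pairs. These values rested on the high dose of Soshiho-tang: without that 1 difference the median was 0.31, and pairs with r over 0.8 numbered 3, against 19 with it. ACACA and FADS2 (0.90) and SREBF1 and FADS2 (0.84) stayed over 0.8. ACLY and ACACA came over 0.8 only without that difference (0.84, against 0.43 with it). SREBF1 and ACSS2 were at 0.07 with it and at -0.75 without it. Among 11102 genes with a symbol and a mean of at least 5 CPM, those most like SCD over the 12 differences included UPP1, a uridine phosphorylase (r = 0.98), and EIF2AK3, the PERK kinase of the endoplasmic reticulum (0.98). Those most like FASN were the transcription factor KLF6 (0.97), the actin nucleator SPIRE1 (0.97) and NIBAN1 (0.96). For these genes no r was taken without the high dose of Soshiho-tang. At that dose UPP1 and EIF2AK3 stood at 1.22 and 0.81, and KLF6, SPIRE1 and NIBAN1 at 1.45, 0.65 and 1.19. At the high dose of Schisandrae Fructus UPP1 and EIF2AK3 stood at -0.02 and -0.03 (SCD -0.34). KLF6, SPIRE1 and NIBAN1 stood at 0.28, 0.25 and 0.18 there (FASN 0.19).

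**Figure D5:**
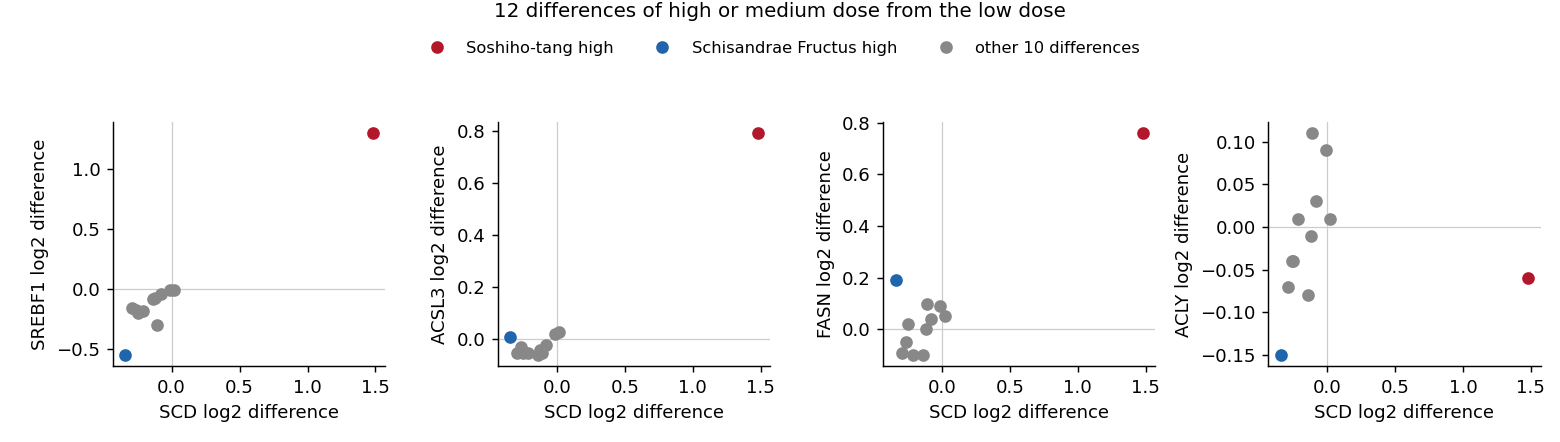
Log2 differences of SREBF1, ACSL3, FASN and ACLY (vertical axes, scales differ) against that of SCD over the 12 comparisons of a high or medium dose with the same extract at its low dose. The high dose of Soshiho-tang (red) lies far from the others at 1.48 for SCD; without it the r of SCD with FASN is 0.13 and with SREBF1 0.73.

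Regulators of the pathway were compared next, from lists of related genes. Of 12 tested genes of SREBP and liver X receptor control, 7 were higher and 1 lower at the high against the low dose of Soshiho-tang (median 0.31), where 9.91% of all genes tested were higher and 8.67% lower. INSIG1, itself a known SREBP target, averaged 315 CPM at the high and 131 CPM at the low dose (1.27 ± 0.05). MID1IP1, which promotes polymerisation of acetyl-CoA carboxylase, was higher by 0.75 ± 0.06, NR1H3, the liver X receptor alpha, by 0.73 ± 0.19 and SREBF2, the sterol regulator, by 0.47 ± 0.08. With Schisandrae Fructus 6 were higher and 4 lower (median 0.12), beside 22.3% and 23.6% of all genes tested. INSIG1 (-0.35 ± 0.04), MBTPS1 (-0.36 ± 0.05), a protease that cuts SREBP, and SREBF2 (-0.17 ± 0.07) were among the lower ones and both liver X receptor genes, NR1H3 (0.54 ± 0.15) and NR1H2 (0.48 ± 0.08), among the higher ones. INSIG1 with Schisandrae Fructus, and SREBF2 with both, were named after their values were seen. MLXIPL, the carbohydrate-response factor ChREBP, is counted among the higher genes in both but had few reads, at most 5 counts in the low-dose libraries. High-dose libraries had 10 to 16 counts with Soshiho-tang and 24 to 35 with Schisandrae Fructus. Whether it passed the low-count filter only through groups where it was high was not checked. Summed counts were 26 at the high and 4 at the low dose of Soshiho-tang (ratio 5.05, 95% counting interval 1.75 to 19.9). With Schisandrae Fructus they were 87 and 15 (ratio 4.53, 2.6 to 8.45). These intervals cover counting error of the summed libraries only and leave out the spread between libraries. INSIG1 was also lower with Yijin-tang (-0.26 ± 0.04), Longan Arillus (-0.16 ± 0.04) and Zizyphi Semen (-0.17 ± 0.04). In this list 1 gene was higher and 2 lower with Yijin-tang (3.61% and 3.39% of all genes tested). With Longan Arillus 0 were higher and 1 lower, where 0.936% of all genes tested were called in either direction. With Zizyphi Semen 1 was higher and 2 lower (SCAP 0.16, MID1IP1 -0.20), where 5.78% were called. None was called with Liriopis seu Ophiopogonis Tuber (0%).

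Of 9 suppliers of citrate, acetyl-CoA and NADPH, 1 was higher (PGD of the pentose phosphate pathway, 0.35 ± 0.05) and 1 lower (ACACB, the mitochondrial carboxylase, -0.47 ± 0.16) at the high against the low dose of Soshiho-tang, where 18.6% of all genes tested were called. Against the vehicle 5 were higher and 1 lower at that dose, where 30.3% were called. With Schisandrae Fructus 4 were lower and 1 higher, ACSS1 (0.47 ± 0.15), beside 45.9% of all genes tested. ACACB averaged 3.11 CPM at its high and 8.32 CPM at its low dose (-1.42 ± 0.14), and the NADPH producers IDH1 (-0.69 ± 0.05) and ME1 (-0.61 ± 0.07) were lower too. With Yijin-tang 1 of 9 was called, IDH1 (-0.25 ± 0.05), beside 7% of all genes tested. The other 3 replicated extracts had none called, where at most 5.78% of all genes tested were.

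Among relatives of the elongases and desaturases, 3 of 12 were higher and 2 lower with Soshiho-tang (9.91% and 8.67% of all genes tested), FADS3 (0.67 ± 0.09) and ELOVL5 (0.38 ± 0.08) higher and SCD5 (-0.52 ± 0.14) and HACD2 (-0.30 ± 0.09) lower. With Schisandrae Fructus 2 were higher and 5 lower (22.3% and 23.6% of all genes tested), FADS3 (0.49 ± 0.07) higher and SCD5 (-0.83 ± 0.12), HACD1 (-0.53 ± 0.07) and HACD2 (-0.39 ± 0.07) lower. SCD5, the second stearoyl-CoA desaturase, was thus lower with both extracts, at 2.85 against 4.08 CPM with Soshiho-tang and 2.33 against 4.13 CPM with Schisandrae Fructus, although SCD moved in opposite directions. None of this list was called with the other 4 replicated extracts, where at most 7% of all genes tested were. Of 6 other acyl-CoA synthetases 1 was higher with Soshiho-tang (SLC27A4, 0.27 ± 0.07), 1 with Yijin-tang (ACSL5, 0.44 ± 0.09), and 2 were lower with Schisandrae Fructus (SLC27A3, -0.54 ± 0.12, and SLC27A4, -0.16 ± 0.06), with none called in the other 3. Over all genes tested 18.6%, 7% and 45.9% were called in these comparisons, so these counts are no larger than the background except with Yijin-tang, where the count is a single gene.

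In glycerolipid assembly and storage PLIN2, the coat protein of lipid droplets, was higher in 4 of the 6 replicated extracts at the high against the low dose. It averaged 167 ± 1.23 against 54.7 ± 1.06 CPM (SD) with Soshiho-tang (1.61 ± 0.05) and 130 ± 4.73 against 56.6 ± 0.615 CPM with Schisandrae Fructus (1.19 ± 0.04). The log2 fold changes with Zizyphi Semen (0.62 ± 0.04) and Yijin-tang (0.20 ± 0.04) were smaller. The 1 library of Aucklandiae Radix at its high dose had 227 CPM, against 54 CPM at its low dose, and that of Polygalae Radix 75.8 against 58.8 CPM. LPIN1, the phosphatidate phosphatase lipin, and LPCAT3, which places polyunsaturated chains in phospholipids, had the sign of SCD: with Soshiho-tang they were higher by 0.38 ± 0.07 and 0.39 ± 0.08, and with Schisandrae Fructus they stood at -0.57 ± 0.06 and -0.46 ± 0.07. Of the 10 genes of this list 3 were higher and 0 lower with Soshiho-tang, where 9.91% and 8.67% of all genes tested were. With Schisandrae Fructus 4 were higher and 2 lower (22.3% and 23.6%), with PNPLA2 (0.48 ± 0.06) among the higher. With Yijin-tang 2 were higher and 1 lower (DGAT2 0.39 ± 0.09 and LPIN1 -0.31 ± 0.06), beside 3.61% and 3.39%. Zizyphi Semen had 1 higher and 0 lower, where 5.78% of all genes tested were called in either direction. None was called with Longan Arillus (0.936%) or Liriopis seu Ophiopogonis Tuber (0%).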

How the data were processed

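The authors deposited 1 table of expected counts, estimated per gene with RSEM 1.3.3 after STAR 2.7.3a alignment to hg38, trimming with Trim Galore 0.6.5 and FastQC 0.11.9, per the submitters' processing notes. Libraries were made with a directional kit per the labels' protocols. The sources used here do not give the annotation release or strand setting. Of all values 10.86% were not whole, and counts were rounded. All 19 groups with replicates (54 libraries) entered 1 fit in edgeR 4.0.16 (R 4.3.3) with TMM scaling, edgeR's default low-count filter and the quasi-likelihood F test (35 residual and 6.3 prior degrees of freedom). Adjusted p-values are Benjamini-Hochberg values over 17851 genes. The SE is the log2 fold change divided by the square root of F. Log2 CPM of groups of 1 library used a prior count of 2. Nothing says that replicates were separate cultures, so the p-values cover library-to-library spread only, which may be technical. Of 51 pairs of replicate libraries none differed by less than sampling noise (chi-square per degree of freedom 2.15 to 50.38). The model was also run on counts simulated with its own fitted spread, so that run cannot show whether it suits these libraries. Alternatives were DESeq2 1.42.0 and its size factors, no filter, only the groups compared, the replicate number as a block and leaving out each library. Named genes were all members, up to 4 called genes of each related list with the largest change, and the 3 genes most like SCD and FASN, of which 1 is not reported here. The members and lists were chosen with earlier results of these data known.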

Additional observations from a re-analysis of the deposited data

How the results depend on the processing

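Under the alternatives tried no called member reversed direction. The counts of members called, in edgeR unless stated, held within 1.5 times with these exceptions. Without the low-count filter the count was 1 for Yijin-tang high against low, 3 high against vehicle and 2 low against vehicle; 1 for Soshiho-tang medium and 1 low against vehicle; 2 for Schisandrae Fructus medium against low and 1 low against vehicle; 2, 1 and 1 for Liriopis seu Ophiopogonis Tuber high, medium and low against vehicle; 2 for Longan Arillus high against low and 4 medium against vehicle; 1 and 1 for Zizyphi Semen high and medium against vehicle; and 0 for the difference between Longan Arillus and Zizyphi Semen. With only the groups compared it was 3 for Yijin-tang low, 1 and 2 for Soshiho-tang medium and low, 5 and 2 for Schisandrae Fructus medium and low, 5 and 0 for Liriopis seu Ophiopogonis Tuber high and low, 0 for Longan Arillus medium, and 4 and 2 for Zizyphi Semen medium and low, all against vehicle, and 1 for Schisandrae Fructus medium, 0 for Longan Arillus high and 0 for Zizyphi Semen high against low. With DESeq2's size factors it was 3 for Yijin-tang medium, 1 for Liriopis seu Ophiopogonis Tuber medium and 1 for Longan Arillus low against vehicle. DESeq2's test gave 1 for Schisandrae Fructus medium against low and 2 for Liriopis seu Ophiopogonis Tuber high against vehicle. The causes were not tested.

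Deviations from the group mean were correlated over all genes tested between same-numbered libraries of different groups. The medians over library pairs were 0.01, 0.01 and 0 in 3 library sets, with single pairs from -0.26 to 0.29. For differently numbered libraries the medians were 0, -0.01 and 0. Each correlation spans all genes tested, so it cannot settle whether the numbers pair the libraries for single genes. With Longan Arillus SCD was lowest in replicate 3 at the high, medium and low dose (189, 165 and 221 CPM). With Yijin-tang it was lowest in replicate 3 at the high dose (208 CPM) and in replicate 1 at the medium dose (218 CPM). The replicate block raised Schisandrae Fructus medium against low to 1 (FADS2, adjusted p = 0.0326) and changed no other count by over 1.5 times.

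Leaving out 1 library gave, for the high against the low dose, 6 to 7 calls with Soshiho-tang, 5 to 9 with Schisandrae Fructus, 0 to 2 with Yijin-tang and 0 to 1 with Zizyphi Semen, and for Schisandrae Fructus medium against low 0 to 1. Against the vehicle the ranges were 3 to 5, 1 to 6 and 0 to 1 for Yijin-tang high, medium and low, 1 to 3 for Schisandrae Fructus medium, 0 to 2, 0 to 2 and 0 to 3 for Liriopis seu Ophiopogonis Tuber high, medium and low, 1 to 9 and 0 to 2 for Longan Arillus medium and low, and 0 to 2, 0 to 2 and 1 to 4 for Zizyphi Semen high, medium and low. The differences between extracts ranged over 0 to 1 for Longan Arillus and Zizyphi Semen and 3 to 5 for Yijin-tang and Schisandrae Fructus. Where 1 Soshiho-tang library remained, it was assumed to vary like the other groups.

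Without the high dose of Soshiho-tang, a setting added after seeing the data, the pairs of members with r below 0 numbered 14 of 45, against 9 with it. Among pairs with r over 0.8 before, SREBF1 and FASN turned to -0.46 and ELOVL6 and ACSL3 to -0.04, and of the others FASN and FADS2 turned to -0.38 and ACSS2 and SCD to -0.62. The Polygalae Radix and Aucklandiae Radix values have no replicate check.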
